A study of Homo sapiens with 12 samples.

Results

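The 20 genes described here encode translation initiation factors and proteins named after them. They were chosen as the platform annotation symbols that begin with EIF and a digit from 1 to 6, that belong to protein-coding genes and that have a row in the deposited table of values. The 4 genes of the eIF2 kinases (EIF2AK1 to EIF2AK4) were left out by the same rule. The members hold 21 rows and make up 20 of the 14884 genes with a name on the arrays. Expression was measured on 12 Affymetrix arrays of MM.1S cells, an established line from a human multiple myeloma, with 3 arrays in each of 4 groups after 24 h. The control group had only the vehicle. The PD group had 500 nM pomalidomide, a cereblon-binding drug, together with 10 nM dexamethasone, a synthetic glucocorticoid. The FPD group had both of these and, in addition, 1 nM filanesib, which inhibits the mitotic kinesin KSP. The F group had 1 nM filanesib and, by its treatment label, 10 nM dexamethasone as well, whereas its title and the protocol text name the letter F alone. All groups come from a single cell line. The labels do not say whether the 3 arrays of a group stand for separate cultures, so every p-value here reflects the scatter among these arrays and that scatter may be technical.

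In eukaryotes the small ribosomal subunit is loaded with initiator tRNA, is recruited to the capped end of an mRNA by the eIF4F complex (the cap-binding protein eIF4E, a scaffold and a helicase) and scans to the start codon, where eIF5 and eIF5B bring about GTP hydrolysis and joining of the large subunit. The kinase mTOR controls the cap-binding step through the eIF4E-binding proteins, and stress kinases control the tRNA-loading step through eIF2. Plasma cells and myeloma cells make large amounts of immunoglobulin and depend on a high rate of protein synthesis. The subunits of eIF3, eIF2 and eIF2B, the helicases eIF4A1 and eIF4A2 and the eIF4G scaffolds were not analysed here.

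Values are log2 expression values made with RMA, and the size of a change is given as the mean of the first-named group minus that of the group it is set against, on that scale. A gene was called changed where limma, fitted to all 14884 genes, gave a Benjamini-Hochberg adjusted p under 0.05. With 3 arrays a group, the number of arrays limits the precision of every value. Array medians lay between 4.23 and 4.27. Of the 8 plasma cell markers listed, 6 were measured. SDC1 (10.19 in control, 10.21 in FPD) and XBP1 (10.80 and 10.73) lay well above the array medians, and CD27 lay near them (4.22 in control). The array means of the 6 were 9.13 to 9.23 in control and 8.84 to 8.89 in PD and 8.83 to 8.89 in FPD. IRF4 and SLAMF7 fell in PD (-1.23 and -0.48, limma adjusted p = 2.2e-07 and 0.000877) and in FPD (-1.35 and -0.54, limma adjusted p = 6.63e-08 and 0.000399), and whether this has a part in the values below was not tested. The mean of the 4 myeloid markers CD14, CD163, MPO and LYZ was 3.44 to 3.60 over all arrays. That of the B cell markers CD22 and PAX5 was 4.21 to 4.55. The T cell markers CD2 and CD8A (4.76 to 5.14) and the stromal and epithelial markers EPCAM and KRT18 (5.88 to 6.42) had means above the array medians. Each of these means joined unlike genes. In control the group means were 4.065 for CD2 and 5.91 for CD8A, and 4.605 for EPCAM and 7.51 for KRT18. In such bulk samples, fewer cells with a transcript and less of it per cell cannot be told apart.

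EIF5A2 fell in PD and FPD, and the other initiation factor genes changed less. In PD, 3 of the 20 genes were called, all lower: EIF5A2, EIF5B and EIF1AD. In FPD these were EIF5A2, EIF5AL1 and EIF1AD, again all lower than in control. No member was called higher in PD, F or FPD against control, FPD against PD, or FPD against F. Across the 20 genes the log2 change in PD ran from -1.22 to 0.22, and 19 of them changed by less than 0.5 in either direction. The 3 calls in PD are 15% of the members, beside 15.5% of all genes called in either direction and 8.63% called lower. For FPD the members' share was again 15%, beside 13.1% of all genes in either direction and 5.89% lower. The share of members called thus lay near the background for either direction and above it for lower genes alone, by a count of 3 genes, in comparisons that use the same control arrays. The median log2 change of the members was -0.105 in PD and -0.0645 in FPD, beside -0.00269 and -0.0155 over all genes. The members' median in PD was -0.05 after a further quantile normalization, -0.02 without control replicate 1, -0.03 without PD replicate 1 and -0.18 without control replicate 3.

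**Figure D1:**
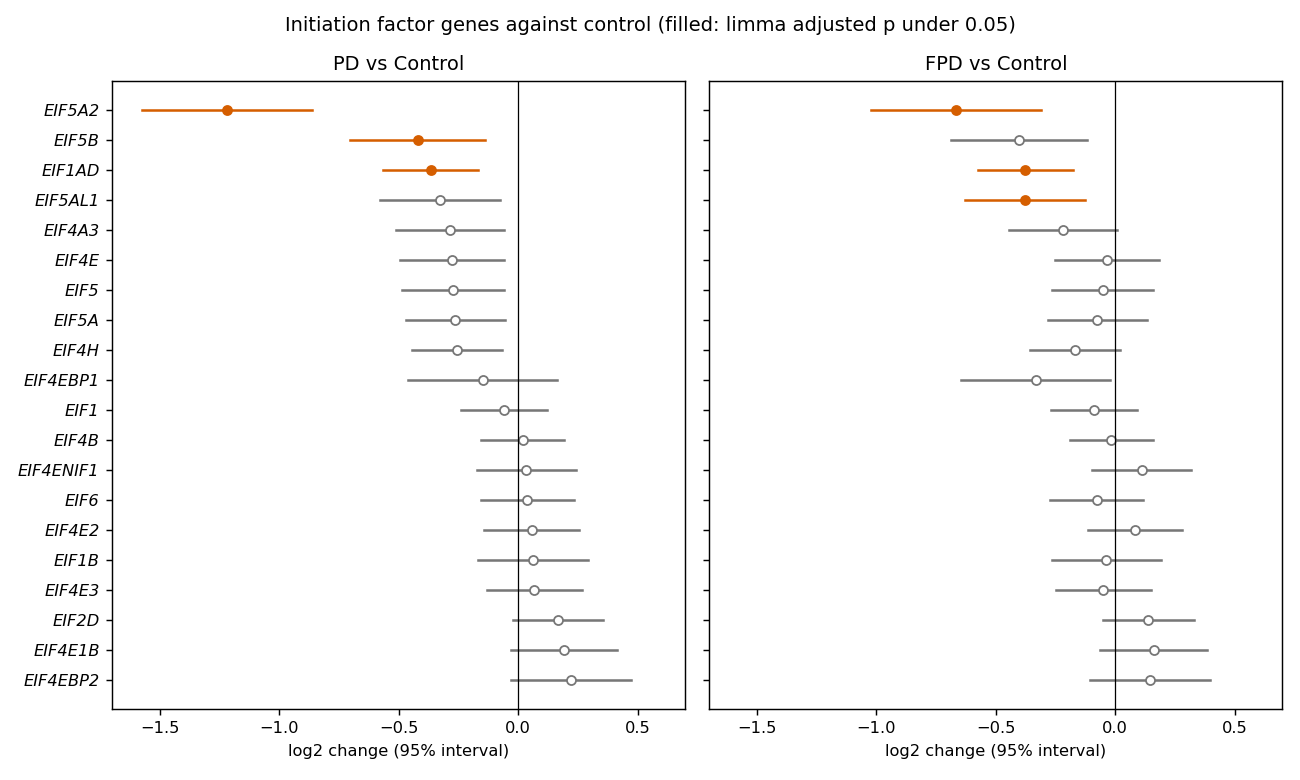
Log2 change (horizontal axis) of each of the 20 initiation factor genes in PD and in FPD against control, with 95% intervals from limma; filled symbols passed the test over all genes. EIF5A2 has the lowest value in both panels, -1.22 in PD and -0.67 in FPD, and no filled symbol lies to the right of 0.

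The promoter sequence of EIF5A2 is shown because this gene carried the largest change among the members, and those of EIF5B and EIF1AD because they were the other members called in PD. Sequences are from RefSeq, build GRCh38.p14, and are written 5′ to 3′ on the gene's strand, with bases upstream of the transcription start only. The EIF5A2 stretch begins 250 bases before the start, and the others begin 150 bases before it. Capitals mark matches, on either strand, to the E-box CACGTG (a motif bound by MYC and related factors), the ETS motif CCGGAAG or the NRF1 motif.
EIF5A2 (chr3:170908688-170908887, minus strand): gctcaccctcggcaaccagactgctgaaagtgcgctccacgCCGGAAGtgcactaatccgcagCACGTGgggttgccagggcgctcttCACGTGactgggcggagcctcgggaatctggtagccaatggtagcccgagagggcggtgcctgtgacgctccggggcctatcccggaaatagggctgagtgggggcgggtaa
EIF5B (chr2:99337239-99337388, plus strand): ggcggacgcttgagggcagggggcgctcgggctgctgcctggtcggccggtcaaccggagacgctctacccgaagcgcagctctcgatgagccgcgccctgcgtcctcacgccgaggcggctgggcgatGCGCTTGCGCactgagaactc
EIF1AD (chr11:66002158-66002307, minus strand): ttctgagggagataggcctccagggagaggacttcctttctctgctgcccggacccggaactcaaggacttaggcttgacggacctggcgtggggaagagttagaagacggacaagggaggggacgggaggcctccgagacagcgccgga
The EIF5A2 promoter holds 2 E-boxes, which begin 187 and 162 bases before the start, and an ETS motif that begins 209 bases before it. In EIF5B an NRF1 motif begins 21 bases before the start. In EIF1AD an ETS motif begins 5 bases before the start and runs past the end of the printed stretch, so it is not in capitals.

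The eIF5A family held the largest change. eIF5A is the small protein that carries the modified amino acid hypusine and helps ribosomes through difficult peptide bonds, EIF5A2 encodes its second isoform, and EIF5AL1 is a gene copy closely like EIF5A. EIF5A2 measured 5.82, 6.20 and 5.80 in control, 6.11, 6.37 and 6.40 in F, 5.18, 4.44 and 4.55 in PD and 5.39, 5.34 and 5.10 in FPD. Every PD and every FPD array lay below every control and every F array, and the PD arrays were the most scattered, with replicate 1 well above the others. The fall in PD was -1.22 ± 0.17 (log2 change ± SE, n = 3 per group, 2.33-fold lower, limma adjusted p = 0.000104), and it passed the test with any of the 6 arrays of this comparison left out (-1.45 to -1.08). Of all genes, 0.343% had a log2 change below -1 in PD, and EIF5A2 was the only member among them. In FPD the fall was -0.67 ± 0.17 (1.59-fold lower, limma adjusted p = 0.0138). It no longer passed when leaving out control replicate 2 (limma adjusted p = 0.0732) or FPD replicate 3 (0.0706). The PD values come close to the array medians, where RMA compresses differences.

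The other eIF5A genes moved less. EIF5A measured 6.69, 6.86 and 6.64 in control, 6.89, 7.11 and 7.09 in F, 6.40, 6.42 and 6.58 in PD and 6.69, 6.69 and 6.57 in FPD. The 3 F arrays were above all others and the PD arrays lay below control without overlap, but neither F (0.30 ± 0.10, limma adjusted p = 0.666) nor PD (-0.26 ± 0.10, limma adjusted p = 0.0852) passed the test against control. EIF5AL1 measured 5.20, 5.14 and 5.04 in control, 5.20, 5.0 and 4.88 in F, 4.65, 4.70 and 5.05 in PD and 4.81, 4.84 and 4.59 in FPD. Its FPD arrays lay below all control and F arrays, while PD overlapped control through replicate 3. The change was -0.38 ± 0.12 in FPD (limma adjusted p = 0.0462) and -0.33 ± 0.12 in PD (limma adjusted p = 0.0788). The FPD call was lost with any of the 6 arrays left out (limma adjusted p = 0.0574 to 0.192), and the PD value passed without PD replicate 3 (limma adjusted p = 0.0179). Because EIF5AL1 is so like EIF5A, probes of one may bind RNA of the other, and both rows are reported as uncertain. The difference in change between EIF5A2 and EIF5A was not tested.

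**Figure D2:**
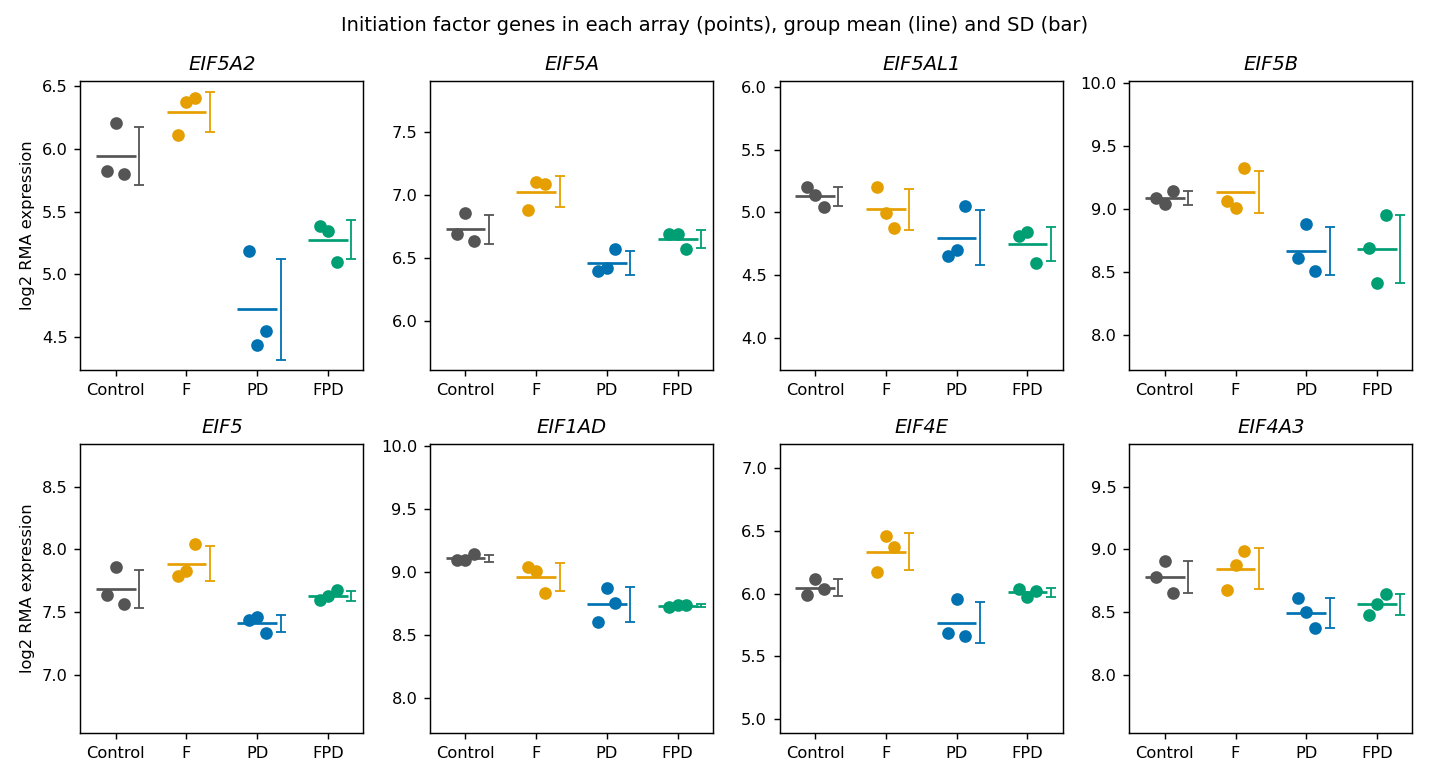
Log2 expression (vertical axis, spanning the same number of units in every panel) of 8 initiation factor genes in each array of the Control, F, PD and FPD groups; points are arrays, lines group means and bars the SD. EIF5A2 spans 1.96 log2 units over the 12 arrays, and in EIF5A and EIF4E the F arrays lie above, and the PD arrays below, those of control.

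The factors of subunit joining came next. EIF5B, the GTPase that joins the large ribosomal subunit, measured 9.08, 9.04 and 9.15 in control, 9.07, 9.01 and 9.33 in F, 8.61, 8.88 and 8.51 in PD and 8.69, 8.41 and 8.95 in FPD. All PD and FPD arrays lay below all control and F arrays, with a wide scatter in FPD. Its change was -0.42 ± 0.13 in PD (limma adjusted p = 0.0423) and -0.40 ± 0.13 in FPD (limma adjusted p = 0.0586). The PD call rested on a narrow margin: it no longer passed when leaving out control replicate 1 (limma adjusted p = 0.0879), 2 (0.0754) or 3 (0.117), without PD replicate 1 (0.112) or 3 (0.157), and after a further quantile normalization (0.0904). In FPD the value passed without FPD replicate 3 (limma adjusted p = 0.0184). EIF5, the factor that triggers GTP hydrolysis at the start codon, measured 7.63, 7.86 and 7.56 in control, 7.79, 7.83 and 8.04 in F, 7.44, 7.46 and 7.34 in PD and 7.59, 7.63 and 7.68 in FPD. Its PD arrays lay below those of every other group (-0.27 ± 0.10, limma adjusted p = 0.0817), while FPD overlapped control (-0.05 ± 0.10, limma adjusted p = 0.823).

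Among the genes with an EIF1 symbol, EIF1AD was lower, and EIF1 and EIF1B did not pass the test. EIF1AD encodes a protein with a domain like that of eIF1A, and measured 9.09, 9.09 and 9.14 in control, 9.04, 9.0 and 8.83 in F, 8.60, 8.87 and 8.75 in PD and 8.72, 8.74 and 8.74 in FPD. All treated arrays lay below all control arrays. The change was -0.37 ± 0.09 in PD (limma adjusted p = 0.0125), -0.38 ± 0.09 in FPD (limma adjusted p = 0.0124) and -0.15 ± 0.09 in F (limma adjusted p = 0.893). The FPD call held with any of the 6 arrays left out, and the PD call was lost without PD replicate 1 (limma adjusted p = 0.0648). EIF1, which guards start codon choice, measured 10.18, 10.18 and 10.07 in control, 10.08, 10.21 and 10.23 in F, 10.06, 10.16 and 10.03 in PD and 10.07, 10.06 and 10.03 in FPD. Its PD arrays overlapped control (-0.06 ± 0.08, limma adjusted p = 0.738), and its FPD arrays lay just below (-0.09 ± 0.08, limma adjusted p = 0.602). For its paralogue EIF1B the log2 change was 0.06 ± 0.11 in PD and -0.04 ± 0.11 in FPD (limma adjusted p = 0.801 and 0.894). EIF2D, which can deliver initiator tRNA without eIF2, measured 9.72, 9.75 and 9.71 in control, 9.77, 9.74 and 9.88 in F, 9.88, 9.82 and 9.97 in PD and 9.82, 9.79 and 9.99 in FPD. It was the member with all PD arrays above control, by 0.17 ± 0.09, which did not pass the test (limma adjusted p = 0.261). Its FPD arrays also all lay above control (0.14 ± 0.09, limma adjusted p = 0.388).

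No cap-binding gene passed the test against control in PD or FPD. EIF4E, the cap-binding subunit of eIF4F, measured 5.99, 6.12 and 6.03 in control, 6.17, 6.46 and 6.37 in F, 5.68, 5.96 and 5.66 in PD and 6.04, 5.97 and 6.02 in FPD. The F arrays lay above and the PD arrays below control without overlap, and FPD overlapped control. The log2 change was -0.28 ± 0.10 in PD (limma adjusted p = 0.0848), and it passed without PD replicate 2 (limma adjusted p = 0.0284). In FPD it was -0.04 ± 0.10 (limma adjusted p = 0.89). EIF4E2, which encodes a cap-binding protein that acts as a repressor, measured 7.40, 7.38 and 7.33 in control and 7.36, 7.50 and 7.42 in PD, which overlap (0.06 ± 0.09, limma adjusted p = 0.783). For the further relatives the log2 change in PD was 0.07 ± 0.09 for EIF4E3 and 0.19 ± 0.10 for EIF4E1B, a form known from oocytes (limma adjusted p = 0.732 and 0.269).

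Genes of proteins that bind eIF4E and hold it back also stayed short of the threshold. EIF4EBP2, an mTOR-controlled repressor, measured 10.72, 10.93 and 10.44 in control, 10.75, 10.70 and 10.49 in F, 11.01, 10.78 and 10.97 in PD and 10.87, 10.89 and 10.77 in FPD. PD and control overlapped (0.22 ± 0.12, limma adjusted p = 0.259). EIF4EBP1, its paralogue, was the most scattered member in control, at 7.90, 7.57 and 7.28, and measured 7.36, 7.24 and 7.14 in FPD. Its change in FPD was -0.33 ± 0.15 (limma adjusted p = 0.168), and it passed without control replicate 3 (-0.48, limma adjusted p = 0.0413). EIF4ENIF1, which encodes a shuttling protein that binds eIF4E, measured 8.09, 8.02 and 7.96 in control and 8.06, 8.09 and 8.02 in PD, which overlap (0.03 ± 0.10, limma adjusted p = 0.888).

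Of the helicase and cofactor genes, EIF4A3 and EIF4H had PD arrays below control and EIF4B did not. EIF4A3, a helicase of the exon junction complex that is related to the eIF4A of initiation, measured 8.78, 8.91 and 8.65 in control, 8.67, 8.88 and 8.99 in F, 8.61, 8.50 and 8.37 in PD and 8.48, 8.56 and 8.64 in FPD. EIF4H, a helicase cofactor, measured 9.36, 9.27 and 9.30 in control, 9.28, 9.24 and 9.41 in F, 9.06, 9.06 and 9.04 in PD and 9.21, 9.0 and 9.22 in FPD. Neither passed the test in PD (-0.29 ± 0.11, limma adjusted p = 0.0868 for EIF4A3; -0.26 ± 0.09, limma adjusted p = 0.0674 for EIF4H). EIF4B, the other cofactor, measured 10.31, 10.35 and 10.38 in control and 10.41, 10.42 and 10.28 in PD, which overlap (0.02 ± 0.08, limma adjusted p = 0.927). It had a second row, mentioned after its values were seen, which was far more scattered (5.35 to 7.17 over the 12 arrays) and whose PD difference of 0.71 did not pass the test (limma adjusted p = 0.0958). EIF6, which keeps the ribosomal subunits apart, measured 8.12, 8.05 and 7.95 in control, 8.04, 8.28 and 8.04 in F, 8.09, 8.08 and 8.08 in PD and 7.98, 7.91 and 8.01 in FPD. PD and control overlapped (0.04 ± 0.09, limma adjusted p = 0.857).

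Several members lay just outside the threshold in PD: EIF4H, EIF5AL1, EIF5, EIF4E, EIF5A and EIF4A3 had limma adjusted p-values of 0.0674 to 0.0868. The arrays of PD lay wholly below those of control in 8 of the 20 genes (40%), beside 15.8% of all genes, and wholly above in 1, EIF2D, beside 13.2%. In FPD they lay below control in 7 (35%), beside 15.5% of all genes, and above in EIF2D. These shares of all genes cover every level, whereas 19 of the 20 members lay above the median level. The share without overlap was not taken among genes of that level. When only the 7442 genes above the median level were tested, 8 of the 19 members left were called in PD, all lower (EIF5A2, EIF5B, EIF1AD, EIF4A3, EIF4E, EIF4H, EIF5 and EIF5A). In that setting 32.5% of the genes tested were called and 19.3% were called lower. Without PD replicate 1 the count of members called in PD was 1, EIF5A2, and without PD replicate 2 it was 4.

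Adding F treatment took no member past the threshold. In F against control, 0 of the 20 genes were called by limma, beside 0.00672% of all genes. EIF5A and EIF4E had an unadjusted p under 0.05 (10% of the members, beside 6.01% of all genes). Their F arrays all lay above control (beside 4.84% of all genes), and those of EIF1AD and EIF4E3 all lay below (beside 5.15%). In FPD against PD, 0 of the 20 were called by limma, beside 0.0336% of all genes. EIF5A2, EIF4E and EIF5 had an unadjusted p under 0.05 (15%, beside 8.62%). The FPD arrays of EIF4E and EIF5 all lay above PD (beside 8.1% of all genes) and those of EIF6 all lay below (beside 6.35%).

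The comparisons of F with control and of FPD with PD share no array. The log2 change of EIF5A2 was 0.35 ± 0.17 in F against control (limma adjusted p = 0.826) and 0.55 ± 0.17 in FPD against PD (limma adjusted p = 0.324), where the arrays overlapped through PD replicate 1. For EIF4E the same changes were 0.29 ± 0.10 and 0.24 ± 0.10 (limma adjusted p = 0.702 and 0.526). For EIF5 they were 0.20 ± 0.10 and 0.22 ± 0.10 (limma adjusted p = 0.846 and 0.556), and for EIF5A 0.30 ± 0.10 and 0.19 ± 0.10 (limma adjusted p = 0.666 and 0.621). None of these differences passed the test over all genes. An unadjusted p under 0.1 with a higher mean in both comparisons, a rule chosen after the values were seen, held for these 4 members (20%) and for 1.3% of all genes. As the rule was chosen with these 4 members in view, its outcome for them was set beforehand and the shares are no test.

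**Figure D3:**
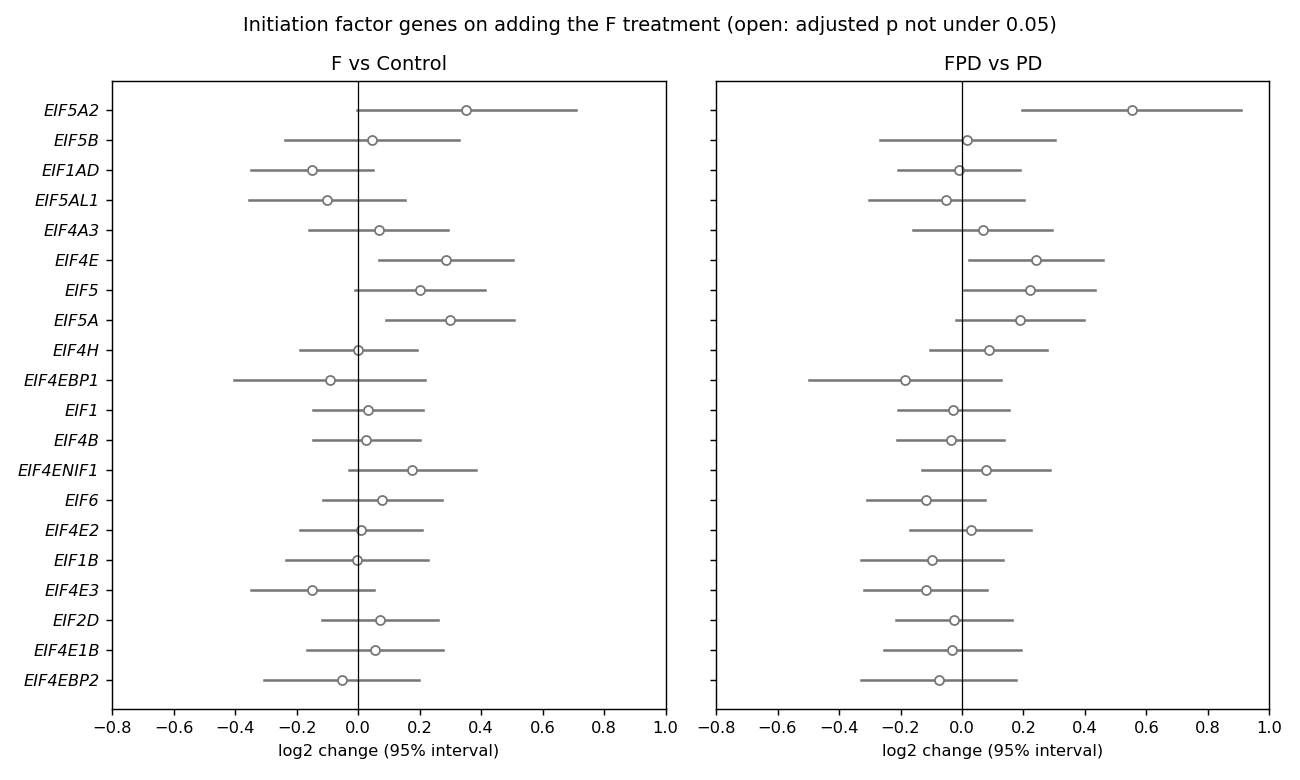
Log2 change (horizontal axis) of the 20 initiation factor genes in F against control and in FPD against PD, with 95% intervals from limma; open symbols did not pass the test over all genes. EIF5A2, EIF4E, EIF5 and EIF5A lie to the right of 0 in both panels, at 0.19 to 0.55, and every symbol is open.

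The mean of both differences, a comparison added after their values were seen, was 0.45 ± 0.12 for EIF5A2 (limma adjusted p = 0.157). No member was called by limma there, beside 0.43% of all genes, and 4 of the 20 had an unadjusted p under 0.05 (20%, beside 8.57%). These were the same 4 members, EIF5A2, EIF4E, EIF5 and EIF5A, so the count is not separate from the one above. In this comparison EIF5A2 passed the test without PD replicate 1 (0.57, limma adjusted p = 0.0177), which is the highest of its PD arrays. If the F label holds, the difference between F and control includes dexamethasone and that between FPD and PD does not. Their mean is then not the effect of filanesib alone. The values of DDIT4 and FKBP5, which glucocorticoids induce, are given beside the F label. No group had dexamethasone alone and PD also had pomalidomide, so these values do not show what dexamethasone alone would do. DDIT4 measured 5.97 ± 0.11 in F and 5.99 ± 0.08 in control (mean ± SD, n = 3), against 10.45 ± 0.01 in PD. FKBP5 measured 6.09, 5.56 and 5.58 in F, 5.54, 5.60 and 5.56 in control and 7.18, 7.04 and 6.95 in PD. Neither difference between F and control passed the test (-0.03 and 0.18, limma adjusted p = 0.978 and 0.902).

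The departure from additivity, the change from PD to FPD minus that from control to F, was called for 0 of the 20 genes by limma, beside 0% of all genes. None of the members had an unadjusted p under 0.05 in it, beside 5.6% of all genes. The smallest p belonged to EIF6 (-0.20 ± 0.13, limma adjusted p = 0.896), followed by EIF1AD (0.14 ± 0.13, limma adjusted p = 0.913). For EIF5A2 the departure was 0.20 ± 0.24 (95% interval -0.30 to 0.70, limma adjusted p = 0.936). If the F label holds, F and control also differ in dexamethasone, whereas FPD and PD do not. The departure then carries the effect of dexamethasone as well and does not isolate an interaction with filanesib.

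FPD and F differ in pomalidomide and, if the F label does not hold, in dexamethasone. Between them 4 of the 20 genes were called, all lower in FPD. That is 20% of the members, beside 14.1% of all genes called in either direction and 6.64% called lower. FPD arrays lay wholly below F arrays in 12 members (60%), beside 15.2% of all genes, and wholly above in EIF4EBP2. These shares of all genes cover every level, whereas 19 of the 20 members lay above the median level. Among genes above that level, 5 of the 19 members were called (26.3%), beside 30.2% of the genes tested in either direction and 15.2% lower. EIF5A2 differed most, by -1.02 ± 0.17 (limma adjusted p = 0.000567), and kept its call with any of the 6 arrays left out. The difference was -0.45 ± 0.13 for EIF5B, -0.38 ± 0.10 for EIF5A and -0.32 ± 0.10 for EIF4E (limma adjusted p = 0.0332, 0.0161 and 0.0463). These 3 calls were less stable. EIF4E kept its call without F replicate 1 and lost it without F replicate 2 (limma adjusted p = 0.195) or 3 (0.128) or FPD replicate 1 (0.095), 2 (0.132) or 3 (0.103). EIF5A lost its call without F replicate 2 (limma adjusted p = 0.0753), F replicate 3 (0.0647) or FPD replicate 3 (0.0726). EIF5B lost it without F replicate 1 (limma adjusted p = 0.0512) or 3 (0.15) or FPD replicate 1 (0.0816) or 2 (0.17).

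The group means of 7 members, EIF5A2, EIF5A, EIF5, EIF5B, EIF4E, EIF4A3 and EIF4H, ran from highest to lowest in the order F, control, FPD and PD. This order was seen in 35% of the members and in 9.61% of all genes. It was chosen after the values were seen, so these shares are no test. Some of its steps were very small. F minus control was 0.0001 for EIF4H, 0.05 for EIF5B and 0.07 for EIF4A3. FPD minus PD was 0.02 for EIF5B, 0.07 for EIF4A3 and 0.09 for EIF4H. For none of the 7 did the difference between F and control, or between FPD and PD, pass the test over all genes.

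Promoters were searched for motifs in 19 members, over 250 bases before and 50 after each listed start. An E-box was found in 6 of the 19 (31.6%), EIF5A2, EIF4E, EIF4A3, EIF4H, EIF4B and EIF1B, beside 8.77% of all 27305 genes in the RefSeq promoter table and 11.3% of the 9707 protein-coding genes of the arrays that it holds. A gene with several listed starts has more chances of a match, but each of these 6 members had 1 listed start. The 30 bases around each E-box outside EIF5A2 are given to show the letters beside the motif, with the E-box in capitals.
EIF4E (chr4:98929341-98929370, minus strand): ctacccatcggcCACGTGaccagtcctttt
EIF4E (chr4:98929188-98929217, minus strand): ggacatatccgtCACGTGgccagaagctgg
EIF4A3 (chr17:80147232-80147261, minus strand): ccagttccctttCACGTGacgaagagtgcc
EIF4H (chr7:74174145-74174174, plus strand): acgccgccgcacCACGTGggctgcagagcg
EIF4B (chr12:53006422-53006451, plus strand): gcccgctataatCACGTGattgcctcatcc
EIF1B (chr3:40309641-40309670, plus strand): gcgcgggacggtCACGTGggaggggccgcg
In PD the log2 changes of these genes were -1.22 for EIF5A2, -0.29 for EIF4A3, -0.28 for EIF4E, -0.26 for EIF4H, 0.02 for EIF4B and 0.06 for EIF1B, so the E-box was found both in the member with the largest change and in members near 0. MYC, which encodes an E-box-binding factor, fell by 0.52 in PD and by 0.83 in FPD on the log2 scale (limma adjusted p = 0.000574 and 8.57e-06), and its part in these values was not tested. The ETS motif was found in 6 members (31.6%, beside 17.9% of the protein-coding genes of the arrays), the NRF1 motif in 5 (26.3%, beside 10.3%) and the YY1 motif AAGATGG in 3 (15.8%, beside 8.21%). EIF5A, which has 6 listed starts, is in each of these counts. A match describes letters and shows no binding.

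Genes that act on initiation from outside the family included larger changes. Among the 4 eIF2 kinases, which slow initiation under stress, 1 rose and 1 fell in PD, and 1 rose in FPD (50% and 25% of the list, beside 15.5% and 13.1% of all genes called in either direction). EIF2AK4, the kinase GCN2 that senses uncharged tRNA, measured 6.85, 6.83 and 6.85 in control, 6.85, 6.68 and 7.02 in F, 8.16, 8.05 and 8.0 in PD and 8.02, 8.09 and 8.13 in FPD. All PD and FPD arrays lay above all control and F arrays. The rise was 1.22 ± 0.10 in PD (2.34-fold, limma adjusted p = 5.23e-07) and 1.23 ± 0.10 in FPD (2.35-fold, limma adjusted p = 4.9e-07). EIF2AK2, the kinase PKR that senses double-stranded RNA, measured 8.95, 9.05 and 9.14 in control and 8.87, 8.77 and 8.54 in PD (-0.32 ± 0.10, limma adjusted p = 0.0475). It lost that call without control replicate 1 (limma adjusted p = 0.0505), 2 (0.107) or 3 (0.154) or PD replicate 2 (0.0753) or 3 (0.2), with the compared arrays alone (0.0949) and after a further quantile normalization (0.117). Of the list of eIF2 phosphatase subunits and stress factors 2 genes were measured and none was called in PD or FPD. These were ATF4 and DDIT3, transcription factors downstream of eIF2 phosphorylation (-0.09 and -0.15 in PD, limma adjusted p = 0.599 and 0.475).

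Of 7 measured initiation cofactors, 2 were called in PD and 2 in FPD, all higher (28.6% of the list in each, beside 15.5% and 13.1% of all genes). MKNK2, a kinase that phosphorylates eIF4E, measured 9.10, 9.21 and 9.32 in control, 9.39, 9.07 and 9.09 in F, 9.81, 9.60 and 9.70 in PD and 9.97, 9.82 and 9.85 in FPD, so that PD and FPD lay above the rest without overlap. It rose by 0.49 ± 0.11 in PD and by 0.67 ± 0.11 in FPD (limma adjusted p = 0.00403 and 0.000407). PAIP2, an inhibitor of the poly(A)-binding protein, rose in PD (0.32 ± 0.10, limma adjusted p = 0.0289), which no longer passed when leaving out control replicate 2 (limma adjusted p = 0.0976) or 3 (0.0947) or PD replicate 1 (0.0735) or 3 (0.0832), or with the compared arrays alone (0.0536). MKNK1, the paralogue of MKNK2, rose in FPD (0.34 ± 0.09, limma adjusted p = 0.0261), which no longer passed when leaving out control replicate 2 (limma adjusted p = 0.102) or 3 (0.0825) or FPD replicate 2 (0.091) or 3 (0.078).

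Of 6 measured mTOR-pathway genes, 2 rose in PD and 3 in FPD, and none fell (33.3% and 50% of the list, beside 15.5% and 13.1% of all genes called in either direction). DDIT4, an inhibitor of mTOR signalling, rose most (4.46 ± 0.09 in PD, 22.0-fold, limma adjusted p = 8.74e-15). PDCD4, an inhibitor of the eIF4A helicase, measured 8.20, 8.52 and 8.18 in control, 8.43, 8.47 and 8.64 in F, 9.09, 8.92 and 8.80 in PD and 8.80, 9.15 and 8.91 in FPD. It rose by 0.63 ± 0.12 in PD and by 0.65 ± 0.12 in FPD (limma adjusted p = 0.00173 and 0.0017), with all PD and FPD arrays above all control and F arrays. TSC2, a brake on mTOR, rose in FPD (0.42 ± 0.10, limma adjusted p = 0.0105) and missed the threshold in PD (0.31 ± 0.10, limma adjusted p = 0.0504). The FPD value no longer passed when leaving out control replicate 2 (limma adjusted p = 0.0592) or FPD replicate 1 (0.0537). The PD value passed without control replicate 3 (limma adjusted p = 0.0456), after a further quantile normalization (0.022) and among genes above the median level (0.0245). Where the rows of other genes were averaged, its limma adjusted p was 0.0493, but TSC2 has 1 row and its change of 0.31 stayed the same.

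**Figure D4:**
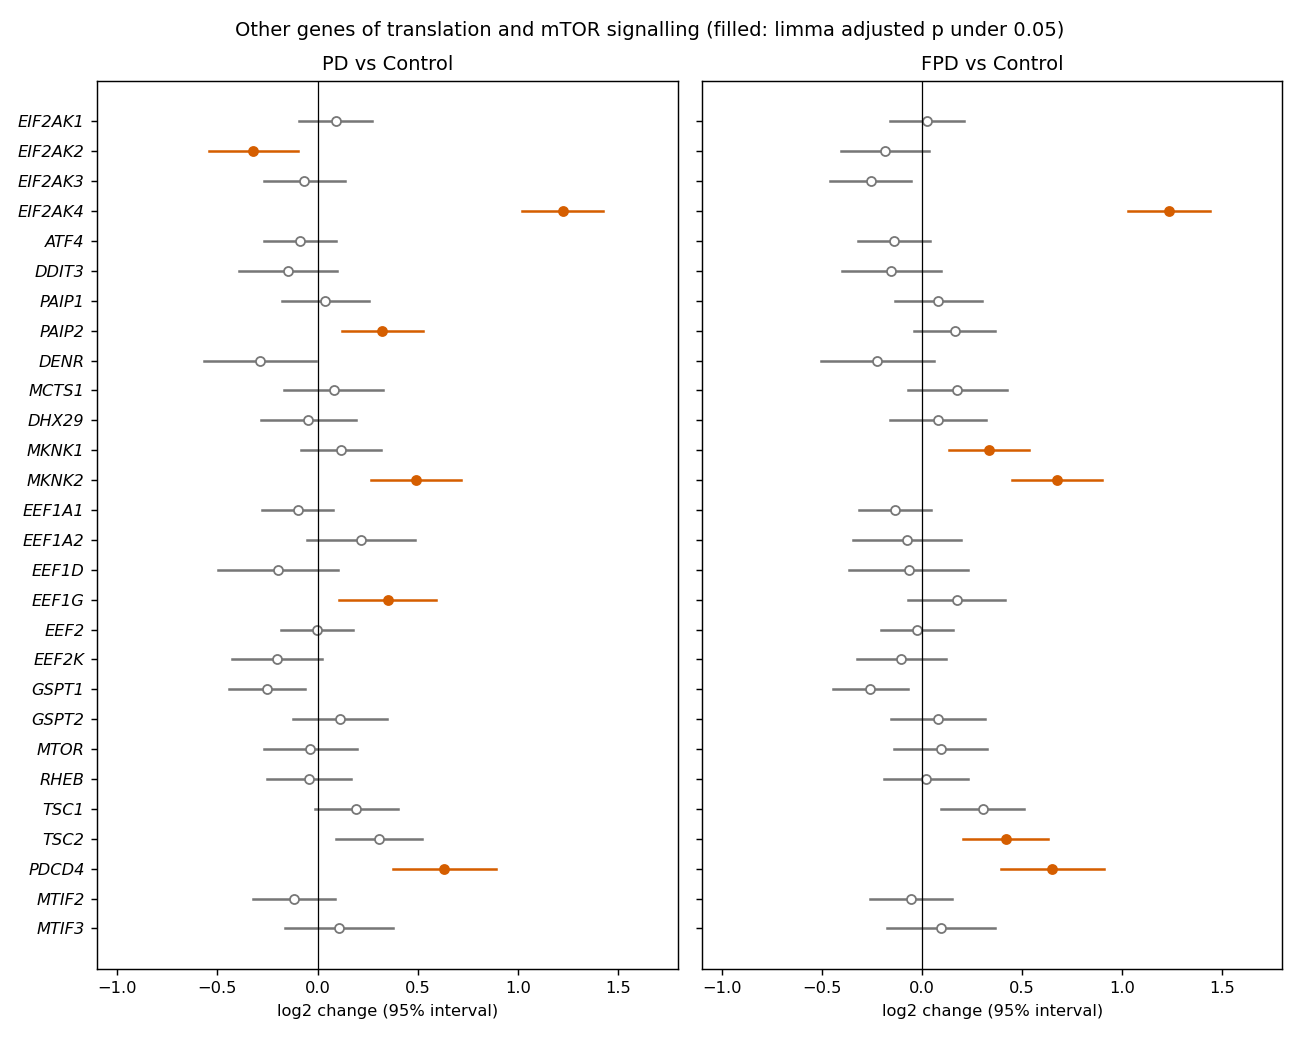
Log2 change (horizontal axis) of measured eIF2 kinases, stress factors, initiation cofactors, elongation and termination factors, mTOR-pathway genes and mitochondrial initiation factors in PD and FPD against control, with 95% intervals from limma; filled symbols passed the test over all genes. EIF2AK4 (1.22 and 1.23), MKNK2 and PDCD4 are filled on the right in both panels, and DDIT4 is not drawn because it lies beyond the axis.

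Of 8 measured elongation and termination factors, 1 was called in PD, higher, and none by limma in FPD, where GSPT1 had the smallest unadjusted limma p of the list (0.0105). The call in PD is 12.5% of the list, beside 15.5% of all genes, and in FPD 13.1% of all genes were called. EEF1G, a subunit of the complex that recharges eEF1A, was the gene called in PD (0.35 ± 0.11, limma adjusted p = 0.0486). It no longer passed when leaving out control replicate 2 (limma adjusted p = 0.159) or 3 (0.139) or PD replicate 2 (0.156) or 3 (0.124), and the mean of the gene's rows gave 0.17 (0.268). The call was also lost with the compared arrays alone (limma adjusted p = 0.0626) and after a further quantile normalization (0.0502). GSPT1, the release factor eRF3a, named after its values were seen, had a log2 change of -0.25 ± 0.09 in PD and -0.26 ± 0.09 in FPD (limma adjusted p = 0.0694 and 0.0695). Both values passed among genes above the median level (limma adjusted p = 0.0354 and 0.036) and without control replicate 3 (0.0496 and 0.0489). In FPD against F its change was -0.40 ± 0.09 (limma adjusted p = 0.00566), which passed with any of the 6 arrays left out. The mitochondrial initiation factor genes MTIF2 and MTIF3 were not called in either group, with log2 changes of -0.12 and 0.11 in PD (limma adjusted p = 0.509 and 0.678).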

How the data were processed

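Gene expression was measured in 12 MM.1S samples, 1 array each, grouped by their labels. The deposited values are on a log2 scale; per the submitters' processing notes the authors used Affymetrix Expression Console with RMA, with its version, settings and genome build not given in the sources used here. RMA gives all arrays a common distribution, so a change in total RNA per cell would not show, and it compresses low signals.

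Of 53617 rows, 16098 had 1 gene symbol in the platform annotation, 0 had several and 37519 had none. For the 779 genes with more than 1 row, the row with the highest mean stood for the gene. This left 14884 genes, all found by identifier in the RefSeq table of GRCh38.p14. Group means were estimated with limma 3.58.1 (R 4.3.3; lmFit, then eBayes, two-sided) on the 12 arrays together, leaving 8 residual degrees of freedom, with Benjamini-Hochberg adjustment over all genes. The model was checked on simulated data. With 3 arrays against 3, an exact permutation test cannot go below p = 0.1 and was not used.

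Array values were given for called members with the largest changes, for those with the smallest p where none was called, and for the largest and smallest change in PD within each role; other genes were added after their values were seen. The members and lists were chosen with earlier results of these data known. Alternatives were the mean of a gene's rows, only genes above the median level, a further quantile normalization, only the compared arrays, the replicate number as a block, and each array left out in turn. Promoters matched for 19 of the 20 members.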

Additional observations from a re-analysis of the deposited data

How the results depend on the processing

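Of 1739 values of members under an alternative, 1583 kept their direction and their side of the threshold. Most of these were never called. The main fit called 3 members in PD and 3 in FPD against control and 4 in FPD against F, and only values of these calls could lose a call. The mean of a gene's rows could alter the log2 change of EIF4B alone, and the replicate block altered no log2 change. No called value changed its sign, 28 lost their call, 13 gained one, and 115 that passed under neither setting changed sign. The number of members called in PD against control was 8 among the genes above the median level, 2 after a further quantile normalization, and 1 to 4 with an array left out. With an array left out it was 1 to 3 in FPD against control, lowest without control replicate 2, and 1 to 4 in FPD against F, lowest without F replicate 3. In the mean of the differences made by F it was 0 to 1, with EIF5A2 called without PD replicate 1. In F against control, FPD against PD and the departure from additivity, 0 members were called by limma under each alternative run.

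Same-numbered arrays did not deviate together: the correlation of their deviations from the group means was over 0.1 in 5 of 18 pairs (-0.256 to 0.158), so the numbers were not taken as pairs. With the replicate block, 3 members were called in PD against control, 2 in FPD against control, where EIF5AL1 lost its call (limma adjusted p = 0.0655), 4 in FPD against F and 0 by limma in the others. Among the other pathway genes named in PD against control, the block ended the calls of EIF2AK2 (limma adjusted p = 0.0668) and EEF1G (0.0518) and brought TSC2 past the threshold (0.0303). No detection p-values were used, so values near the array medians cannot be set apart from background.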
